A study of Mus musculus with 60 samples.

Results

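The genes described here encode the machinery that makes, binds and removes the poly(A) tails of messenger RNA, and they surround Pabpn1, the gene that was transfected into the cell lines of the study. The set was given as a list of 38 gene symbols, and a probe belonged to it where its annotated symbol, or the current symbol of its Entrez identifier, was on the list. Of the 38 genes, 34 had a named probe, with 41 distinct probes in all. Papolg, Cnot1, Cnot3 and Cnot6 were not analysed here. In the fit, 27 probes of 24 genes had enough values to be tested, out of 9722 probes of 8110 genes in all.

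The study compared 5 mouse cell lines on spotted 2-colour arrays. The lines D7E and D7F had been transfected with mutant Pabpn1, D7E expressing it high and D7F low according to the labels. WTA (high) and WTD (low) had been transfected with the wild-type gene, and IM2 had not been transfected. Each line was grown as 3 cultures, and each culture was set against 1 common IM2 reference on 4 arrays, with both dye orientations on each of 2 array parts (60 arrays). Each combination of genotype and level is 1 line, so that a property of the line and an effect of its transgene cannot be told apart. The labels give no tissue, promoter, clone history or mutation, and they do not say how separate the cultures of a line were, so p-values measure the spread between these cultures. They name the RNA as total RNA for part I and as polyA RNA for part II.

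A poly(A) tail is added in the nucleus after the pre-mRNA has been cut. CPSF recognises the AAUAAA signal and cuts, CstF binds the downstream GU-rich element, cleavage factors I and II complete the complex, and a poly(A) polymerase adds the adenosines while the nuclear protein Pabpn1 binds the growing tail and stimulates the polymerase. In the cytoplasm Pabpc proteins bind the tail and promote translation, and the Pan2-Pan3 and CCR4-NOT complexes shorten it before the messenger is degraded. In people an expansion of the alanine stretch at the start of PABPN1 causes oculopharyngeal muscular dystrophy, the disease the study is named for.

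The start of the mouse Pabpn1 coding sequence is printed because that stretch is the disease site. It lies at chr14:54894156-54894192 on the plus strand (RefSeq, GRCm38.p6). Capitals mark the start codon and the 10 alanine codons that follow it, of which 7 are GCG and 3 are GCA.
Pabpn1 coding start: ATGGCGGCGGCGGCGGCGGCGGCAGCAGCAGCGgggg

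All values below are log2 ratios of culture over IM2 reference, and differences of mean log2 ratios between lines, which hold if the base of the deposited values is 10. Ratios give no level of a gene and no order between genes. A probe was called where the adjusted p of limma, with Benjamini-Hochberg adjustment over all 9722 probes, was under 0.05.

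In the transfected lines the transgene's own gene was higher than in IM2, and 4 genes of tail binding, tail synthesis and cleavage were lower. These were Pabpc1, the main cytoplasmic poly(A)-binding protein, the poly(A) polymerases Papola and Papolb, and Nudt21, the RNA-binding subunit of cleavage factor I, on 1 of its 2 probes. Of the 27 member probes 5 were called (18.5%), 1 higher and 4 lower, against 15.2% of all probes, of which 6.4% were higher and 8.83% lower. Without Pabpn1 the count was 4 of 26 (15.4%), close to that of all probes, and the median difference of these 26 was -0.03, against 0.03 over all probes. The same 5 member probes had no overlap between the transfected and the IM2 cultures, as had 11.5% of all probes.

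**Figure D1:**
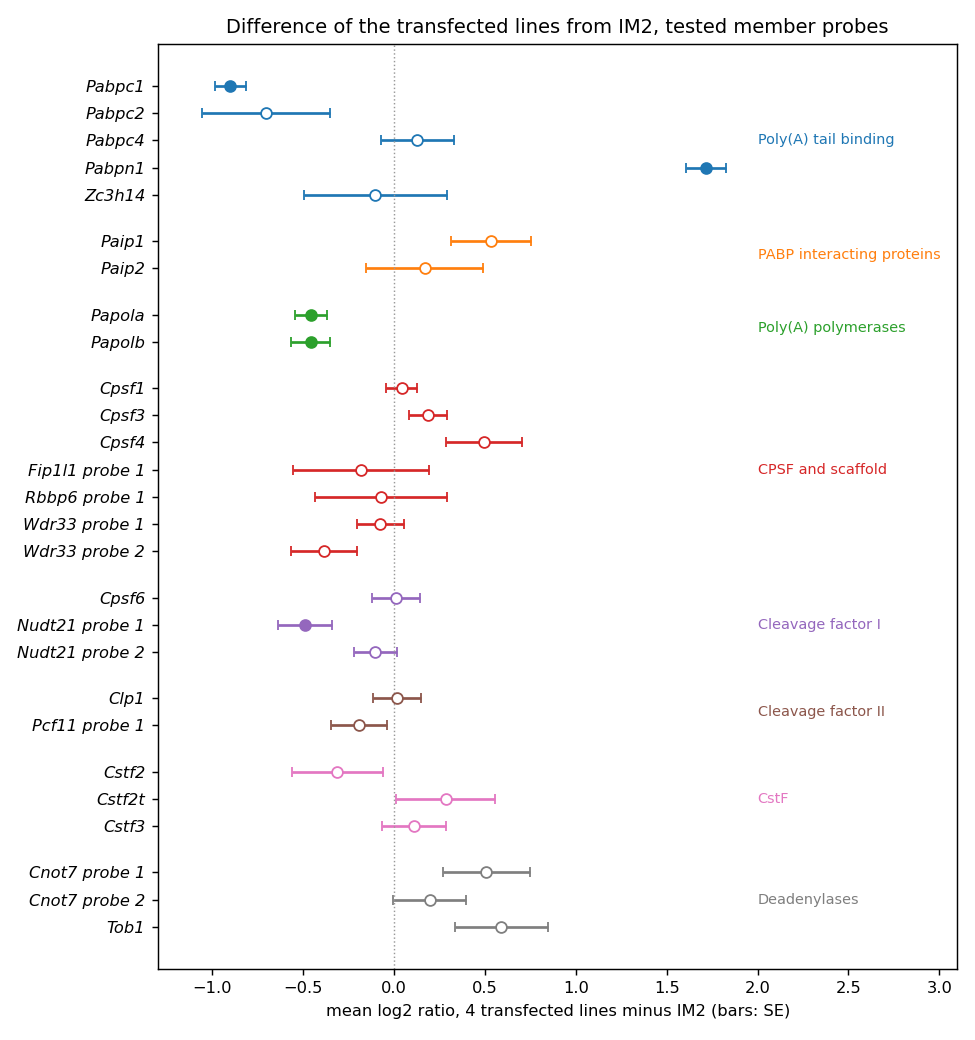
Difference of mean log2 ratio (x axis) between the 4 transfected lines and IM2 for the 27 tested member probes, grouped by role; points are fitted differences, bars are standard errors, and filled points were called. Pabpn1 stands alone on the right at 1.72, and Pabpc1, Papola, Papolb and Nudt21 probe 1 are the filled points left of 0.

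Pabpn1 binds tails in the nucleus and is the gene whose expression the lines were made to change. Its log2 ratios were 1.71, 1.44 and 1.67 in D7E, 1.04, 0.83 and 0.87 in D7F, 2.47, 2.22 and 1.89 in WTA, and 1.47, 1.47 and 1.36 in WTD, against -0.24, -0.13 and -0.16 in IM2. All 12 transfected cultures lay above all 3 IM2 cultures, and 24 of 24 transfected arrays were positive with either dye. The direction of the ratios, culture over reference, was itself read from this sign, so the sign of the Pabpn1 difference is not a finding. The transfected lines exceeded IM2 by 1.72 (SE 0.11, adjusted p = 7.07e-06 by limma), a 3.28-fold ratio. Whether the probe reads the transgene, the mouse gene or both was not determined, since probe sequences were not used here.

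Pabpc1, which binds the tails of cytoplasmic messengers and links them to translation, fell in every transfected line. Its log2 ratios were -0.90, -0.96 and -0.99 in D7E, -0.71, -0.98 and -0.86 in D7F, -1.14, -1.01 and -1.01 in WTA, and -0.85, -0.79 and -0.89 in WTD, against 0.13, -0.19 and -0.01 in IM2. The groups did not overlap, and the ratio was negative on 24 of 24 transfected arrays, against 3 of 6 IM2 arrays. The difference was -0.90 (SE 0.09, adjusted p = 8.33e-05 by limma), a 1.87-fold lower ratio. Since these are bulk cultures, fewer cells of a type and less RNA per cell cannot be told apart here or below.

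Papola, the main nuclear poly(A) polymerase, fell as well. Its log2 ratios were -0.77, -0.77 and -0.50 in D7E, -0.23, -0.34 and -0.41 in D7F, -0.26, -0.16 and -0.18 in WTA, and -0.66, -0.49 and -0.54 in WTD, against -0.04, -0.08 and 0.17 in IM2. All transfected cultures lay below all IM2 cultures, and the D7E and WTD cultures were the lowest. The difference was -0.46 (SE 0.09, adjusted p = 0.00561 by limma). Its values differed by dye. On the arrays with the culture in Cy3 all 12 transfected values were negative, with a median of -0.74. With the culture in Cy5 8 of 12 were negative, with a median of -0.21. The D7F arrays were not negative in Cy5 (0.001, 0.08 and 0.05), and in Cy3 they read -0.46, -0.75 and -0.88.

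Papolb, the testis-type poly(A) polymerase of the cytoplasm, had a difference of the same size. Its log2 ratios were -0.56, -0.35 and -0.66 in D7E, -0.24, -0.61 and -0.48 in D7F, -0.56, -0.55 and -0.52 in WTA, and -0.40, -0.28 and -0.66 in WTD, against -0.05, -0.15 and 0.11 in IM2. The groups did not overlap, and 23 of 24 transfected arrays were negative. The difference was -0.46 (SE 0.11, adjusted p = 0.0141 by limma). Papola and Papolb are close paralogs, and whether their probes read both messengers was not tested.

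**Figure D2:**
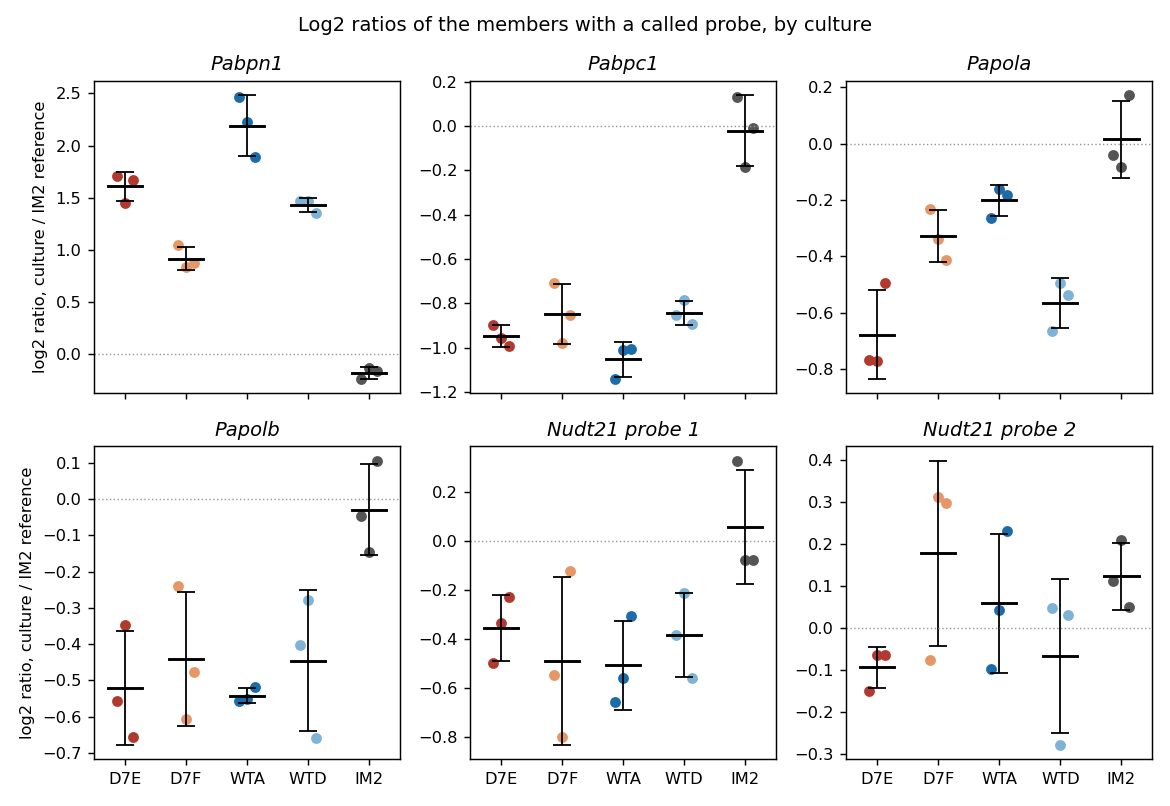
Log2 ratio of each culture (y axis, culture over IM2 reference) in the 5 lines for the members with a called probe and for the second Nudt21 probe; points are cultures, thick lines means and bars standard deviations (n = 3). Transfected and IM2 cultures do not overlap for Pabpn1, Pabpc1, Papola, Papolb and Nudt21 probe 1, and overlap for Nudt21 probe 2.

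Nudt21 had 2 tested probes that differed. Probe 1 read -0.50, -0.33 and -0.23 in D7E, -0.54, -0.80 and -0.12 in D7F, -0.66, -0.56 and -0.31 in WTA, and -0.38, -0.21 and -0.56 in WTD, against 0.33, -0.07 and -0.08 in IM2. These transfected cultures lay below the IM2 cultures, by a difference of -0.49 (SE 0.15, adjusted p = 0.0417 by limma). Probe 2 read -0.28 to 0.31 in the transfected cultures, with a median of -0.02, and 0.05 to 0.21 in IM2. The cultures overlapped, and its difference was -0.10 (adjusted p = 0.591). With both probes averaged the difference was -0.30 (adjusted p = 0.0964), so that the call for Nudt21 rests on 1 probe.

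**Figure D3:**
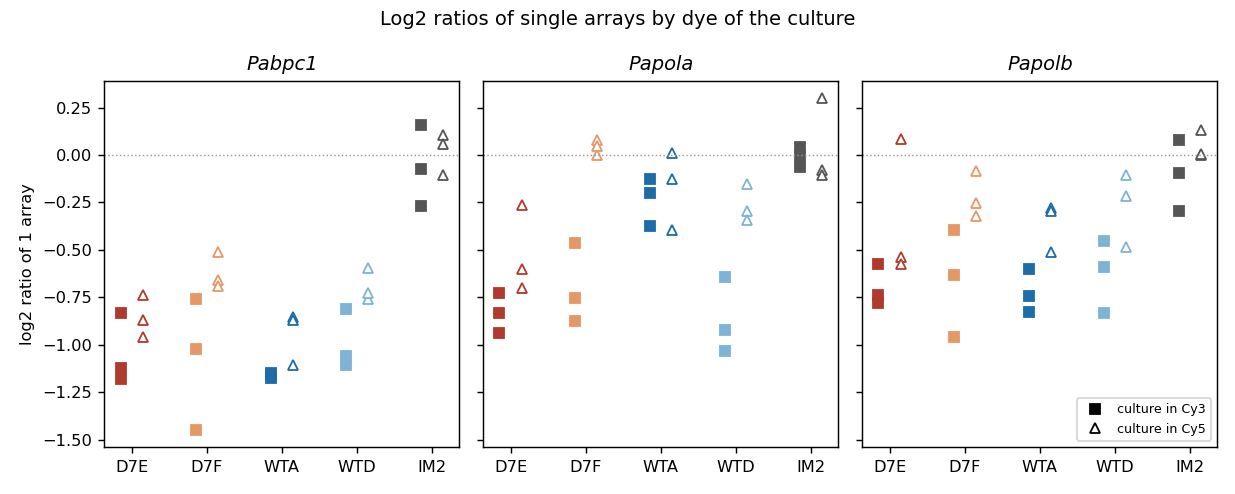
Log2 ratio of every single array (y axis) for Pabpc1, Papola and Papolb, by line and by the dye of the culture (filled squares Cy3, open triangles Cy5). The median of the transfected arrays is lower with Cy3 than with Cy5 in each gene, and the ranges of the dyes overlap. The medians are -1.12 and -0.75 for Pabpc1, -0.74 and -0.21 for Papola, and -0.68 and -0.29 for Papolb.

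The 15 poorest arrays were those with over 25% of rows unusable, 7 of them of IM2. With these left out, the calls for Papola (adjusted p = 0.137), Papolb (0.357) and Nudt21 (0.535) ended and those for Pabpc1 and Pabpn1 remained. In this setting 1 dye array per culture was also enough, and 36 member probes were tested, against 27 in the main fit. With the Cy5 arrays alone the calls for Papola (0.212), Papolb (0.16) and Nudt21 (0.137) ended too, and without IM2 culture 3 that for Papolb (0.0605). The Nudt21 call ended in 17 of 27 alternatives, among them those without IM2 culture 1 (-0.36, adjusted p = 0.195) or IM2 culture 3 (0.0579).

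The promoters of the genes called lower in the transfected lines are printed as context, and shared regulation was not tested. They were taken from RefSeq (GRCm38.p6), 250 bases before the transcription start, for Papola at chr12:105784447-105784696 on the plus strand, Papolb at chr5:142530077-142530326 on the minus strand and Nudt21 at chr8:94037040-94037289 on the minus strand; Pabpc1 is named only. Capitals mark CCAAT and the ETS motif CCGGAAG on either strand, which overlap nowhere except where CCGGAAG meets itself on the other strand in Papolb. The GC box GGGCGG, the TATA box TATAAA and the E-box CACGTG were searched as well, also on both strands.
Papola promoter: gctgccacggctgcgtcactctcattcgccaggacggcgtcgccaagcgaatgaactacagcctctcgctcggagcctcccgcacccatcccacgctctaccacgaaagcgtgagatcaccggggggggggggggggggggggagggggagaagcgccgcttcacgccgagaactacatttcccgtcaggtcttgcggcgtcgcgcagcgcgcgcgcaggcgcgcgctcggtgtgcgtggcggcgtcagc
Papolb promoter: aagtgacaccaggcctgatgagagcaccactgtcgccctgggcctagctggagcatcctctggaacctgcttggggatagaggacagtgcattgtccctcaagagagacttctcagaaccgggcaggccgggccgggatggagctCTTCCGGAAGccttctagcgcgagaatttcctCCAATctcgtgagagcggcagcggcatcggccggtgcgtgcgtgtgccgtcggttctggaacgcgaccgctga
Nudt21 promoter: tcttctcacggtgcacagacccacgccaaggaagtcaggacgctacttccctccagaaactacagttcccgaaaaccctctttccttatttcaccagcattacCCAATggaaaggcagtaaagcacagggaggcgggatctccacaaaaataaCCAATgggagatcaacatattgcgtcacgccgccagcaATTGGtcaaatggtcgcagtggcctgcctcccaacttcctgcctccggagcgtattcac
The Nudt21 window holds CCAAT 3 times and the Papolb window once, and the Papola window holds none of the searched motifs. CCAAT occurred in 33.8% of all 32851 promoter windows and in 32.4% of the 37 windows of the members. For CCGGAAG the shares were 6.91% and 13.5% (5 member windows). They were 32.7% and 56.8% for the GC box, 12.4% and 5.41% for the TATA box, and 6.02% and 5.41% for the E-box. Differences between these shares were not tested. The GC content was 70.4% for Papola, 62% for Papolb and 52.4% for Nudt21.

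The other tail-binding proteins did not pass the test. Pabpc2, a close paralog of Pabpc1, had a difference of -0.70 (SE 0.35, adjusted p = 0.207), with 11 transfected cultures between -1.12 and 0.56 and the 2 measured IM2 cultures at -0.28 and 0.52. Without D7F culture 2, and against the IM2 reference alone, Pabpc2 was called. Pabpc4, the inducible cytoplasmic form, stood at 0.13 and Zc3h14, a zinc-finger protein that binds poly(A), at -0.10. Zc3h14 ranged from -0.82 to 1.77 in the transfected cultures, with an SE of 0.39 for the difference.

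Paip1, which binds Pabpc1 and stimulates translation, had the smallest p over the 5 lines of the Pabpc-binding proteins. Its log2 ratios were 0.10 to 1.08 in the 12 transfected cultures, with a median of 0.49, against 0.27, 0.19 and -0.67 in IM2. The difference was 0.53 (SE 0.22, adjusted p = 0.123). Paip1 was called with the Cy3 arrays alone and against the IM2 reference alone. The third IM2 culture lay below all transfected cultures, and the other IM2 cultures lay inside their range. Paip2, which inhibits Pabpc1, stood at 0.17.

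None of the 7 probes for CPSF, the scaffold and associated proteins passed. Their differences ran from -0.39 to 0.49, with a median of -0.07. Cpsf4, a zinc-finger subunit, was the 1 probe of the group with an unadjusted p under 0.05, with a difference of 0.49 (SE 0.21, adjusted p = 0.132). It ranged from -0.32 to 0.66 in the transfected cultures and stood at -0.58 and -0.11 in the 2 measured IM2 cultures, so the groups overlapped. Wdr33, a subunit that contacts AAUAAA, had the smallest p over the 5 lines in this group. Its probe 1 stood at -0.20 to 0.52 in the transfected cultures, against 0.17 to 0.29 in IM2, with a difference of -0.08 (SE 0.13). Its second probe had a difference of -0.39 (SE 0.18, adjusted p = 0.165). Cpsf3, the endonuclease, stood at 0.19 (SE 0.10, adjusted p = 0.247) and Cpsf1 at 0.04 (SE 0.09), the most precise of the group.

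Cpsf6, the partner of Nudt21 in cleavage factor I, had a difference of 0.01 (SE 0.13). In cleavage factor II, Pcf11 stood at -0.19 (SE 0.16, adjusted p = 0.429) and the RNA kinase Clp1 at 0.01 (SE 0.13). The mean ratios of Cpsf6 were -0.19 in the transfected lines and -0.21 in IM2, and those of Clp1 0.25 and 0.23. Both genes were called when every IM2 array was given the opposite sign. They were also called against the IM2 reference alone, so their small differences depend on the sign taken for the IM2 arrays. Of CstF, Cstf2 had the smallest p over the 5 lines: its ratios were -1.69 to 0.21 in the transfected cultures, with a median of -0.12, against -0.38, 0.28 and 0.35 in IM2. The value of -1.69 came from WTA culture 1 alone, and the difference was -0.31 (SE 0.25, adjusted p = 0.423). Its testis-expressed paralog Cstf2t (0.28) and Cstf3 (0.11) did not pass either.

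The deadenylation genes that could be tested were Cnot7, a catalytic subunit of CCR4-NOT, and Tob1, which recruits CCR4-NOT to messengers. Cnot7 probe 1 had ratios of -0.04 to 1.07 in the transfected cultures, with a median of 0.16, against -1.02, 0.51 and -0.26 in IM2. The groups overlapped, with a difference of 0.51 (SE 0.24, adjusted p = 0.176), and probe 2 had 0.20 (SE 0.20). Tob1 had a difference of 0.59 (SE 0.25, adjusted p = 0.139), with 1 IM2 culture at -1.29. No probe of this group passed in the main fit. Without IM2 culture 2 a Cnot7 probe and Tob1 were called, and a Cnot7 probe was called against the IM2 reference alone.

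Cnot2, Cnot4, Cnot8, Cpsf2, Cpsf7, Cstf1, Pan2, Pan3, Parn and Sympk had probes but too few values for the fit, in 4 to 12 of the 15 cultures. When 1 dye array per culture was enough, 13 of the 14 untested member probes could be fitted, and limma called 0 of them, with 2 at an unadjusted p under 0.05. These were Cnot4 (1.96, adjusted p = 0.158) and Pan3, the subunit that brings Pan2 to the tail (0.88, SE 0.26, adjusted p = 0.0789).

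Set against IM2 line by line, Pabpc1 and Pabpn1 passed in all 4 lines, while the polymerases passed in some. In D7E 4 of 27 member probes were called (12.3% of all probes), in D7F 2 (4.49%), in WTA 3 (11.5%) and in WTD 3 (7.03%). Without Pabpn1 3 of 26 member probes were called in D7E (11.5% of the 26), 1 in D7F (3.85%), 2 in WTA (7.69%) and 2 in WTD (7.69%). The Pabpc1 differences were -0.93 in D7E (adjusted p = 0.000397), -0.83 in D7F (0.00151), -1.03 in WTA (0.000212) and -0.82 in WTD (0.00125). From lowest to highest the order of its mean ratios was WTA, D7E, D7F, WTD and IM2, and D7F and WTD differed by less than their spread. With the poorest arrays left out Pabpc1 no longer passed in D7F (adjusted p = 0.0797) and WTD (0.0607). Pabpn1 did not pass in D7F there either (0.084), nor with the Cy5 arrays alone (0.0914).

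Papola passed in D7E (-0.69, adjusted p = 0.00281) and WTD (-0.58, adjusted p = 0.0107), and did not pass in D7F (-0.34, adjusted p = 0.109) or WTA (-0.22, adjusted p = 0.237). Papolb passed in D7E (-0.49, adjusted p = 0.0336) and WTA (-0.51, adjusted p = 0.029), and stood at -0.41 in D7F (0.109) and -0.42 in WTD (0.082). Papolb was not called between genotypes, between levels or in their interaction, so no difference among the transfected lines is shown for it. These 4 comparisons share the IM2 cultures. The Papola calls ended with the Cy5 arrays alone (adjusted p = 0.081 in D7E and 0.336 in WTD) and with the poorest arrays left out (0.0959 and 0.168). The Papolb call ended in 11 of 27 alternatives in D7E, the replicate block among them (0.053), and in 9 of 27 in WTA, with adjusted p up to 0.573 and 0.359.

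**Figure D4:**
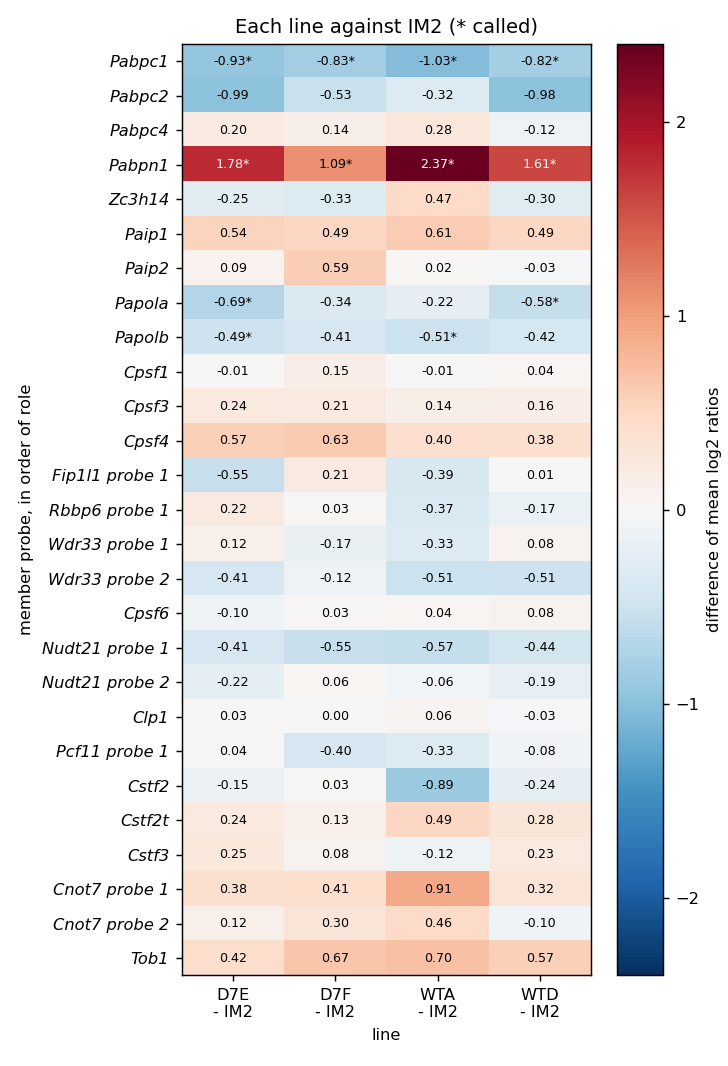
Difference of mean log2 ratio from IM2 of each transfected line (columns) for the 27 tested member probes (rows, in order of role), with colour from blue (lower) to red (higher) and an asterisk on called values. Pabpn1 is red and Pabpc1 blue in every column, and Papola is marked in D7E and WTD.

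Between the mutant and the wild-type lines limma called none of the 27 member probes (0.195% of all probes), with 2 at an unadjusted p under 0.05. Pabpn1 averaged 1.26 in the mutant lines and 1.81 in the wild-type lines, a difference of -0.55 (SE 0.10, adjusted p = 0.0552). The other was Cstf2 (0.51, SE 0.22, adjusted p = 0.736). Pabpc1 averaged -0.90 in the mutant lines and -0.95 in the wild-type lines, with a difference of 0.05 (SE 0.08), and Papolb differed by 0.01 (SE 0.10).

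Between lines labelled high and low 1 of 27 member probes was called (0.381% of all probes), and it was Pabpn1. It averaged 1.90 in the high lines and 1.17 in the low lines, a difference of 0.73 (SE 0.10, adjusted p = 0.00577), in the order the labels give. With arrays centred and scaled this difference was 0.06 (adjusted p = 0.968). Pabpc1 differed by -0.16 between high and low lines (SE 0.08, adjusted p = 0.663).

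Papola was the member called in the interaction of genotype and level, in which each level of a genotype is 1 line. D7E was lower than D7F by 0.35, while WTA was higher than WTD by 0.36. The mutant and the wild-type lines stood apart on different dyes. With the culture in Cy5, D7E (-0.70 to -0.26) lay below D7F (0.001 to 0.08), while WTA (-0.40 to 0.01) overlapped WTD (-0.34 to -0.15). With the culture in Cy3, WTA (-0.37 to -0.13) lay above WTD (-1.03 to -0.64), while D7E (-0.94 to -0.73) overlapped D7F (-0.88 to -0.46). In the interaction, the mean of D7E and WTD (-0.62) was set against the mean of D7F and WTA (-0.26), with a difference of -0.36 (SE 0.08, adjusted p = 0.0408 by limma). It was the 1 of 27 member probes called there, against 2.37% of all probes, and Wdr33 probe 1 (0.35, adjusted p = 0.135) and Pcf11 probe 1 (0.34, adjusted p = 0.26) had an unadjusted p under 0.05. Of 26 other settings 9 kept the call and 17 ended it (adjusted p 0.0163 to 0.339), the replicate block among them (0.0598), and the difference stayed between -0.42 and -0.31.

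Over all 5 lines together the F-test of limma called 3 of 27 member probes (10.3% of all probes), Pabpn1 (adjusted p = 3.41e-05), Pabpc1 (0.000637) and Papola (0.0099). Without Pabpn1 the count was 2 of 26 (7.69%).

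Related lists of genes around the members were followed in the transfected lines against IM2. Over these lists together 10 of 74 probes were called (13.5%), against 15.2% of all probes, so the lists held no more calls than probes in general. Of the list of further deadenylation and tail-binding genes 16 of 32 were tested, and Btg3, a relative of the Tob proteins, fell (-0.56, adjusted p = 0.00295). Of the further poly(A) polymerases and 3 prime end genes 11 of 32 were tested, and Lsm11, a subunit of the U7 particle that processes histone messengers, fell (-0.80, adjusted p = 0.0257). Of the genes of decay after deadenylation 19 of 36 were tested, and Lsm2 (-0.46, adjusted p = 0.00964) and the exosome subunit Exosc8 (-0.59, adjusted p = 0.0175) fell. Of the genes listed around Pabpn1 9 of 16 were tested, and Arih2 (0.45, adjusted p = 0.0229) and Srsf10 (0.41, adjusted p = 0.0382) rose.

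Of the cap-binding and translation partners of Pabpc proteins 16 of 22 were tested. Eif4g3, a scaffold that bridges the cap and the tail (0.49, adjusted p = 0.00433), the release factor Etf1 (0.70, adjusted p = 0.0105) and Syncrip (0.24, adjusted p = 0.0443) rose, and Eif4ebp1, a repressor of cap-dependent translation, fell (-0.81, adjusted p = 0.00199). The medians of the 5 lists were 0.05, 0.02, 0.05, 0.02 and 0.09, against 0.03 over all probes. When every IM2 array was given the opposite sign, the calls of Etf1 (0.19), Srsf10 (0.10), Exosc8 (-0.19), Arih2 (0.28) and Syncrip (0.18) ended, and with the poorest arrays left out none of the called genes of the 5 lists was called. Of these genes only Btg3 and Eif4ebp1 were still called with the Cy5 arrays alone. There Exosc8 stood at -0.105 (adjusted p = 0.716), Lsm11 at -0.29 (0.544) and Srsf10 at 0.16 (0.484). With the Cy3 arrays alone Exosc8, Lsm11 and Srsf10 were called. The Lsm11 call also ended with limit values kept (adjusted p = 0.0611).

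Marker lists of cell types moved with the same comparison. Of the fibroblast list 5 of 10 genes were tested and 3 of 6 probes fell, against 8.83% of all probes, Col3a1 (-1.44) and Col1a1 (-1.22) having the lowest adjusted p, and the median of the list was -1.28 to -0.42 in the transfected cultures and 0.06 to 0.17 in IM2. Of the cycling-cell list 6 of 12 were tested and 3 of 6 probes fell, against the same 8.83%, Rrm2 (-0.98) and Cdk1 (-0.85) having the lowest adjusted p, with medians of -1.06 to -0.26 in transfected and -0.04 to 0.14 in IM2 cultures. Of the skeletal muscle list 13 of 14 were tested and 5 of 13 probes rose, against 6.4% of all probes, Myf6 (0.54) and Chrna1 (0.34) having the lowest adjusted p, with medians of 0.15 to 0.45 in transfected and -0.13 to 0.08 in IM2 cultures. Of the adipocyte list 3 of 8 and of the smooth muscle and endothelium list 5 of 8 were tested, and none was called. The part of these lists in the fall of Pabpc1 and the polymerases was not tested, and ratios cannot show which markers the lines express.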

How the data were processed

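Deposited log10 ratios of 60 arrays were used, per the labels with the culture and the IM2 reference in 2 colours. The base is not stated; the authors' values stop exactly at -2 and 2, a ratio of 100 in base 10, so they were taken as log10 and multiplied by 3.3219. How the arrays were scanned and normalised is not stated in the labels or files used. Values at a limit were treated as missing. Pabpn1 was positive on 24 of 24 transfected part I arrays, so ratios were read as culture over reference. The direction of the IM2 arrays and of part II could not be read from Pabpn1 and was taken to be the same. The dye of the part I arrays of WTA culture 3 was taken from the channel sources, against the titles. In addition, 1 description of D7F culture 1 calls its level high, and the title was used. Part I arrays had 82.4% to 99.9% of rows filled, and part II arrays 46.0% to 99.4%. Ratios have no read depth, and the number of arrays limits the precision.

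A culture was the mean of its 2 dye arrays, and probes with at least 2 cultures in every line were tested. Both dye arrays were required, except with the poorest arrays left out, 1 dye alone or 1 dye array enough. Each part was fitted alone with limma 3.58.1 in R 4.3.3 over all 5 lines, Benjamini-Hochberg running over both parts, and tables were made with Python 3.11.15 and pandas 2.3.3. Correlations of deviations between same-numbered cultures were -0.30 to 0.43 (part I, median -0.005) and -0.28 to 0.53 (part II, median 0.08). These values do not exclude a batch shared by same-numbered cultures. The main fit had no block on culture numbers, and a fit with such a block was run as an alternative. The members and lists were chosen with earlier results of these data known. Named were Pabpn1, every member called in a comparison, the member of each role with the smallest p over the 5 lines, called genes of the related lists and up to 2 examples per marker list; values of further members were picked after they had been seen. Gene names came from the platform annotation and the GRCm38.p6 gene table.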

Additional observations from a re-analysis of the deposited data

Results flagged for a closer look

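The Papola difference between D7E and D7F ran opposite to that between WTA and WTD, and the test of this difference gave -0.36 on the log2 scale (adjusted p = 0.0408 by limma). The level effects, high minus low, were -0.35 in the mutant lines and 0.36 in the wild-type lines. Single arrays of the mutant lines stood apart only with the culture in Cy5, and those of the wild-type lines only with Cy3. Each effect is a comparison of 1 line with 1 line, and the part of the lines themselves cannot be told apart from genotype and level.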

How the results depend on the processing

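Counts are of called member probes. Against 5 for the transfected lines over IM2, the count was 11 against the IM2 reference alone and 2 with the Cy5 arrays alone or the poorest arrays left out. The reference alone added Clp1, Cnot7, Cpsf6, Cstf3, Pabpc2 and Paip1. The count was 7 (reference alone) and 5 (probes measured in all 15 cultures) against 3 for WTA, 1 (poorest arrays left out) against 3 for WTD, and 2 (Cy5 arrays, poorest arrays left out) against 4 for D7E. For D7F it was 5 (reference alone), 1 (Cy5 arrays) and 0 (poorest arrays left out) against 2. Mutant against wild-type had 1, Pabpn1, with arrays centred or probes measured in all 15 cultures, against 0, and high against low had 0 with arrays centred and scaled, Cy5 arrays or the poorest arrays left out, against 1. The interaction had 0 with limit values kept, arrays centred, centred and scaled, Cy5 or Cy3 arrays alone, 1 dye array enough, the poorest arrays left out and the replicate block, against 1, and the 5-line test had 1 with the poorest arrays left out, against 3. Leaving out 1 culture at a time gave 3 to 7 for the transfected lines, D7E 3 to 5, D7F 2 to 3, WTA 2 to 5, WTD 3 to 4, 0 to 1 for mutant against wild-type, 1 for high against low, 0 to 2 for the interaction and 3 to 4 for the 5-line test. The transfected count was 3 without IM2 culture 3, and the WTA count 5 without IM2 culture 2 or WTA culture 2. Pabpn1 was called between mutant and wild-type without IM2 culture 1, IM2 culture 2 or WTA culture 3, and the interaction count was 2, with Wdr33 added, without D7F culture 3. Without each of WTA cultures 1 and 2, WTD cultures 1 to 3, D7E cultures 1 and 2 and D7F cultures 1 and 2 it was 0. With a replicate block on culture numbers the transfected count was 4, Nudt21 (adjusted p = 0.0553) being lost, and Papolb in D7E (0.053) was lost as well. No called difference of Pabpn1, Pabpc1, Papola, Papolb or Nudt21 probe 1 changed sign under the alternatives run, and the causes of these moves were not tested.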
